A study of Mus musculus with 6 samples.

Results

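The MHC class II genes and Ciita, the gene of their master co-activator, were followed across B-cell lymphomas and premalignant B cells of Eµ-Myc mice. The 9 listed genes were H2-Aa, H2-Ab1, H2-Eb1, H2-DMa, H2-DMb2, H2-Oa, H2-Ob, Cd74 and Ciita. A listed gene was matched by its symbol in the array's annotation, and the probe set with the highest mean over the 6 arrays was to be taken where a gene had several. Of the 9 genes, 8 had 1 probe set of their own, among 19938 genes tested in all. H2-DMb2 was measured only through a probe set shared with its near-identical neighbour H2-DMb1, so that probe set is described apart and is not counted among the 8. Cells of 3 groups were measured on 2 Affymetrix Mouse Gene 1.0 ST arrays each, which hold many short probes along each transcript. The first 2 groups were B-cell lymphomas of Eµ-Myc mice carrying a short hairpin RNA against Ezh2, either shEzh2.781 or shEzh2.556. The third was splenic B cells of premalignant Eµ-Myc mice without a hairpin, listed under treatment as control. All 3 groups carry the Eµ-Myc transgene, which puts Myc under the control of the immunoglobulin heavy chain enhancer and is active in cells of the B lineage.

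Several features limit the groups as models. No lymphoma without an Ezh2 hairpin was among the 6 arrays, so malignancy, the hairpin and the way the cells were prepared cannot be told apart in any comparison with the premalignant cells. The lymphoma cells were purified with CD43 beads to at least 95% B220-positive and GFP-positive cells. The labels give the age of no animal and do not say whether the 2 arrays of a group came from different mice, so p-values measure the spread between these arrays, which may be technical. The labels call the premalignant cells normal in 1 field and premalignant Eµ-Myc in others, and they are called premalignant here. All values are deposited signals on the log2 scale, where a difference of 1 is a 2-fold change.

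MHC class II molecules are pairs of an alpha and a beta chain that show peptides from internalised proteins to CD4+ T cells, and B cells carry them throughout most of their life. In the mouse, H2-Aa and H2-Ab1 encode the chains of I-A, and H2-Eb1 encodes the beta chain of I-E. Cd74, the invariant chain, guides new class II molecules to endosomes and blocks their groove, H2-DM (H2-DMa with H2-DMb1 or H2-DMb2) then exchanges the remaining fragment for other peptides, and H2-O (H2-Oa with H2-Ob) restrains H2-DM. Ciita does not bind DNA itself. It is recruited by the factors RFX, CREB and NF-Y, which sit on conserved boxes named X and Y a short way before the start of each class II gene.

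Promoter stretches of the class II genes are shown because these boxes are where Ciita is recruited. RefSeq promoter sequences were used (GRCm38.p6, 250 bases before to 50 after the start). The letters searched were GNAAC, found at the start of the X box, and GATTGG, the CCAAT core of the Y box read on the other strand. The genes named here were searched on their own strand only, and the background of all promoters on both strands. The capitals mark both motifs, with 8 bases on either side of the pair, each 5′ to 3′ on its gene's strand, and for H2-DMb2 the GATTGG alone.
H2-Aa: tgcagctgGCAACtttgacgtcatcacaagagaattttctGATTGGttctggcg
H2-Eb1: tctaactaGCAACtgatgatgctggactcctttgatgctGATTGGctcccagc
H2-DMb2: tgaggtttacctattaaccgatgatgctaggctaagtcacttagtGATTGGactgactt
H2-DMb1: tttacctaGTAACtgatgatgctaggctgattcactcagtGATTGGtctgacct
H2-Oa: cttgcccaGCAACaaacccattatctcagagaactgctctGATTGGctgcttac
H2-Ob: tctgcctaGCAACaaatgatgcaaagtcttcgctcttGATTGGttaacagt
H2-Eb2: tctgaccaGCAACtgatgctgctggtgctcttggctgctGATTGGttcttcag

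These stretches lie on chromosome 17. That of H2-Aa is chr17:34287859-34287912 on the minus strand, and the others are on the plus strand at chr17:34305768-34305820 (H2-Eb1), chr17:34145113-34145171 (H2-DMb2), chr17:34153089-34153142 (H2-DMb1), chr17:34092295-34092348 (H2-Oa), chr17:34238810-34238860 (H2-Ob) and chr17:34325535-34325587 (H2-Eb2). H2-Aa, H2-Eb1, H2-DMb1, H2-Oa, H2-Ob and H2-Eb2 had both motifs on 1 strand, with their first letters 29 bases apart in H2-Ob and 31 or 32 apart in the others. The GATTGG began between 44 bases (H2-Oa) and 101 bases (H2-Eb2) before the start. H2-DMb2 and both H2-DMa promoters of the table held no such pair on the gene's strand, and their other strand was not searched. No promoter sequence was found there for H2-Ab1, Cd74 or Ciita, so their promoters were not searched for the motifs. The table's start lies 2020 bases downstream of the start of the gene record for H2-DMb2 and 172 bases downstream for H2-Eb2, so for these genes the window and the distances refer to that start only. Of all 32851 promoters of that length, 84.8% held GNAAC on either strand and 16.1% held GATTGG. The pair, on 1 strand with starts 20 to 40 bases apart, was held by 1.21%. These shares come from a search of both strands, which is wider than that of the genes above. The motif letters were chosen with these promoters in view, and a match is a description of the letters only.

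The arrays differed in a few ways that touch every result. Deposited medians lay between 6.75 and 6.91 over all probe sets. B-cell markers were high in every array, with a median over 8 markers of 11.4 and 11.6 in shEzh2.781 lymphomas, 11.5 and 11.6 in shEzh2.556 lymphomas, and 11.6 and 11.8 in premalignant cells. Ezh2 itself, the target of the hairpins, read 10.92 and 11.07 in shEzh2.781 lymphomas and 11.20 and 11.30 in shEzh2.556 lymphomas, against 12.64 and 12.70 in premalignant cells. It fell 2.92-fold with both hairpins together, a log2 difference of -1.55 (SE 0.10, limma adjusted p = 1.31e-06). Genes were called at an adjusted p under 0.05 in 1 limma fit of the 3 groups, with Benjamini-Hochberg adjustment over all genes, and the comparisons of each hairpin with premalignant cells share the premalignant arrays.

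With both hairpins combined, 6 of the 8 measured members fell against premalignant cells and none rose. By background, 9.61% of all genes were called lower and 5.6% higher in that comparison. The members' median difference was -0.53, against 0.03 over all genes. With shEzh2.781 alone, 2 of 8 members fell and none rose (6.24% of all genes were called lower and 4.6% higher), and with shEzh2.556 alone 5 of 8 fell and none rose (11.4% of all genes were called lower and 6.8% higher). Their medians were -0.30 and -0.80 against premalignant cells, where all genes had -0.03 and 0.07. The 4 lymphoma arrays were below both premalignant arrays for 3 of 8 members (16.1% of all genes), the shEzh2.781 arrays for 3 of 8 (28.6% of all genes), and the shEzh2.556 arrays for 8 of 8 (26.5% of all genes), though the mean difference of H2-Oa with shEzh2.556, -0.10 as deposited, was 0.01 after quantile normalization. The split of all called genes depended on scaling. With both hairpins it was 1117 higher and 1916 lower as deposited, 1591 and 1645 after quantile normalization, and 1682 and 1530 with array medians subtracted. For shEzh2.781 it was 917 higher and 1244 lower as deposited and 1733 and 841 with medians subtracted, and for shEzh2.556 it was 1355 and 2280 as deposited and 1913 and 1862 after quantile normalization. Subtracting medians raised the median of all genes by 0.12 for shEzh2.781 against premalignant cells and by 0.11 for shEzh2.781 against shEzh2.556, and quantile normalization moved no median by more than 0.07. The count of 6 members depended on single arrays: it was 2 without premalignant array 1, 1 without premalignant array 2, 4 without shEzh2.781 array 1, 7 without shEzh2.781 array 2, 3 without shEzh2.556 array 1 and 4 without shEzh2.556 array 2.

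**Figure D1:**
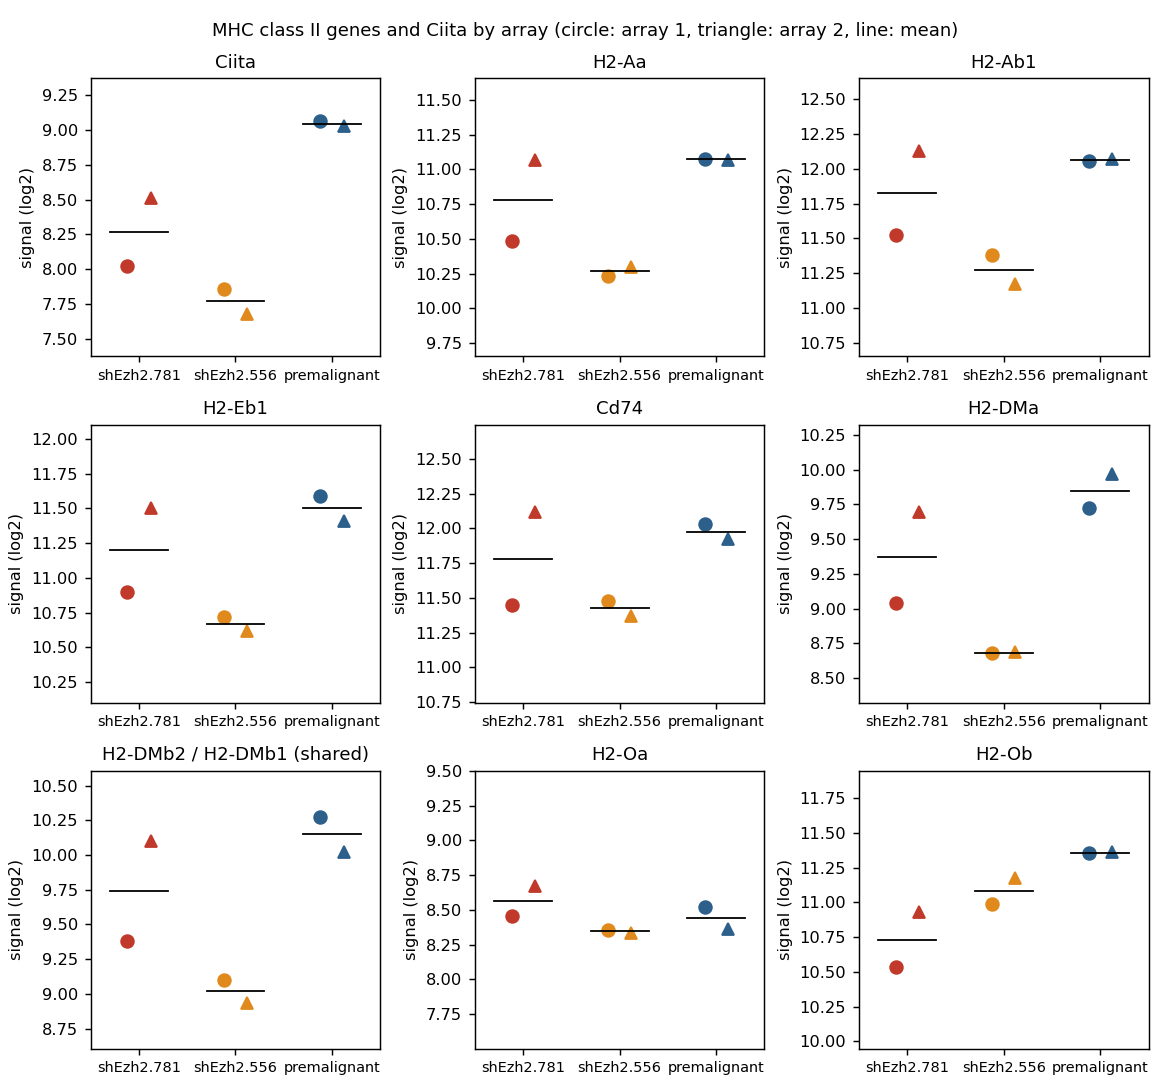
Deposited log2 signal of each measured member, and of the probe set shared by H2-DMb2 and H2-DMb1, in every array, with shEzh2.781 and shEzh2.556 lymphomas left of premalignant cells, a circle for array 1, a triangle for array 2 and a line for the group mean. Ciita is below both premalignant arrays in all 4 lymphomas, while for H2-Aa, H2-Ab1, H2-Eb1 and Cd74 shEzh2.781 array 2 reaches the premalignant range.

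Ciita fell in the lymphomas of both hairpins. Its signal was 8.02 and 8.51 in shEzh2.781 lymphomas and 7.86 and 7.68 in shEzh2.556 lymphomas, against 9.06 and 9.03 in premalignant cells. All 4 lymphoma arrays were below both premalignant arrays, and the shEzh2.556 arrays were the lowest. Ciita fell 2.04-fold with both hairpins together, a log2 difference of -1.03 (SE 0.13, 95% interval -1.32 to -0.74, limma adjusted p = 0.000234). By hairpin it fell 1.72-fold with shEzh2.781 (log2 difference -0.78, SE 0.15, limma adjusted p = 0.006) and 2.42-fold with shEzh2.556 (log2 difference -1.28, SE 0.15, limma adjusted p = 0.000139). In bulk cells, fewer cells that express a gene and less RNA per cell cannot be told apart, here and for every member. The shEzh2.781 call was lost without premalignant array 1 (limma adjusted p = 0.0502) or premalignant array 2 (limma adjusted p = 0.0554), and the shEzh2.556 call held without each array in turn.

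The genes of the classical chains fell with shEzh2.556, where each shEzh2.556 array was below both premalignant arrays. H2-Aa, the I-A alpha chain, read 10.49 and 11.07 in shEzh2.781 lymphomas and 10.23 and 10.30 in shEzh2.556 lymphomas, against 11.08 and 11.07 in premalignant cells. H2-Ab1, its beta chain partner, read 11.53 and 12.13 in shEzh2.781 lymphomas and 11.38 and 11.17 in shEzh2.556 lymphomas, against 12.06 and 12.07 in premalignant cells. H2-Eb1, the I-E beta chain, read 10.90 and 11.50 in shEzh2.781 lymphomas and 10.72 and 10.61 in shEzh2.556 lymphomas, against 11.59 and 11.41 in premalignant cells. In each gene 1 shEzh2.781 array was low like shEzh2.556 and the other lay at or near the premalignant level.

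With shEzh2.556 the 3 classical genes fell by similar amounts. H2-Aa fell 1.75-fold, a log2 difference of -0.81 (SE 0.16, limma adjusted p = 0.00505). H2-Ab1 fell 1.73-fold (log2 difference -0.79, SE 0.17, limma adjusted p = 0.00755), and H2-Eb1 fell 1.78-fold (log2 difference -0.83, SE 0.17, limma adjusted p = 0.00558). With shEzh2.781 none of them was called, and their differences were -0.29 (95% interval -0.65 to 0.06), -0.24 (-0.61 to 0.14) and -0.30 (-0.67 to 0.08). With both hairpins together they fell by 0.55, 0.51 and 0.56 on the log2 scale (limma adjusted p = 0.0201, 0.0358 and 0.0227). H2-Aa kept its shEzh2.556 call without each array in turn, H2-Eb1 lost it without premalignant array 1 (limma adjusted p = 0.0697), and H2-Ab1 lost it without premalignant array 1 (0.0596), premalignant array 2 (0.0509) or shEzh2.556 array 2 (0.0624). The calls with both hairpins together were lost for all 3 genes without either premalignant array, with adjusted p between 0.0852 and 0.209. Those of H2-Aa and H2-Ab1 were also lost without shEzh2.556 array 1 (0.0604 and 0.0523), those of H2-Ab1 and H2-Eb1 without shEzh2.556 array 2 (0.0978 and 0.0624), and that of H2-Ab1 without shEzh2.781 array 1 (0.06).

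Cd74, the invariant chain gene, was not called in any of the comparisons. It read 11.45 and 12.12 in shEzh2.781 lymphomas and 11.48 and 11.37 in shEzh2.556 lymphomas, against 12.03 and 11.92 in premalignant cells. The pattern by array was that of the classical chains, with shEzh2.781 array 2 above both premalignant arrays. Its difference was -0.55 with shEzh2.556 (SE 0.18, 95% interval -0.94 to -0.16, limma adjusted p = 0.0542) and -0.19 with shEzh2.781 (SE 0.18, limma adjusted p = 0.622). Leaving out either shEzh2.781 array brought the shEzh2.556 difference to a limma adjusted p of 0.00447.

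H2-DMa, the alpha chain of the peptide exchanger, fell the most after Ciita with shEzh2.556. Its signal was 9.04 and 9.70 in shEzh2.781 lymphomas and 8.68 and 8.69 in shEzh2.556 lymphomas, against 9.73 and 9.97 in premalignant cells. All 4 lymphoma arrays were below both premalignant arrays, shEzh2.781 array 2 by a narrow margin. H2-DMa fell 2.24-fold with shEzh2.556, a log2 difference of -1.17 (SE 0.18, limma adjusted p = 0.000883), and this call held without each array in turn. With shEzh2.781 the difference was -0.48 (SE 0.18, 95% interval -0.88 to -0.08, limma adjusted p = 0.129), and with both hairpins it fell 1.77-fold (log2 difference -0.82, SE 0.16, limma adjusted p = 0.00363). The call with both hairpins was lost without premalignant array 2 (limma adjusted p = 0.0811). The probe set shared by the beta chain genes H2-DMb2 and H2-DMb1 read 9.38 and 10.10 in shEzh2.781 lymphomas and 9.10 and 8.94 in shEzh2.556 lymphomas, against 10.27 and 10.02 in premalignant cells. In a fit over all 35512 probe sets it fell 2.19-fold with shEzh2.556 (log2 difference -1.13, SE 0.24, limma adjusted p = 0.0405), and it was not called with shEzh2.781 (difference -0.41, limma adjusted p = 0.438). Which of the 2 genes the signal came from cannot be told apart.

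Of the H2-O genes, H2-Ob fell and H2-Oa was not called in any comparison. H2-Oa, the alpha chain, read 8.46 and 8.67 in shEzh2.781 lymphomas and 8.36 and 8.33 in shEzh2.556 lymphomas, against 8.52 and 8.36 in premalignant cells. The whole range over 6 arrays was narrow, and with both hairpins together the difference was 0.01 (SE 0.10, 95% interval -0.22 to 0.24, limma adjusted p = 0.956). H2-Ob, its beta chain, read 10.53 and 10.93 in shEzh2.781 lymphomas and 10.99 and 11.18 in shEzh2.556 lymphomas, against 11.35 and 11.36 in premalignant cells. All 4 lymphoma arrays were below both premalignant arrays, and here the shEzh2.781 arrays were the lowest. H2-Ob fell 1.54-fold with shEzh2.781 (log2 difference -0.62, SE 0.14, limma adjusted p = 0.014), while with shEzh2.556 the difference was -0.27 (SE 0.14, 95% interval -0.58 to 0.04, limma adjusted p = 0.197). With both hairpins it fell 1.36-fold (log2 difference -0.45, SE 0.12, limma adjusted p = 0.0274). The shEzh2.781 call was lost without premalignant array 1 (limma adjusted p = 0.0705), premalignant array 2 (0.0985) or shEzh2.781 array 1 (0.14), and the call with both hairpins was lost without any of these or shEzh2.556 array 1, with adjusted p between 0.0711 and 0.141.

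**Figure D2:**
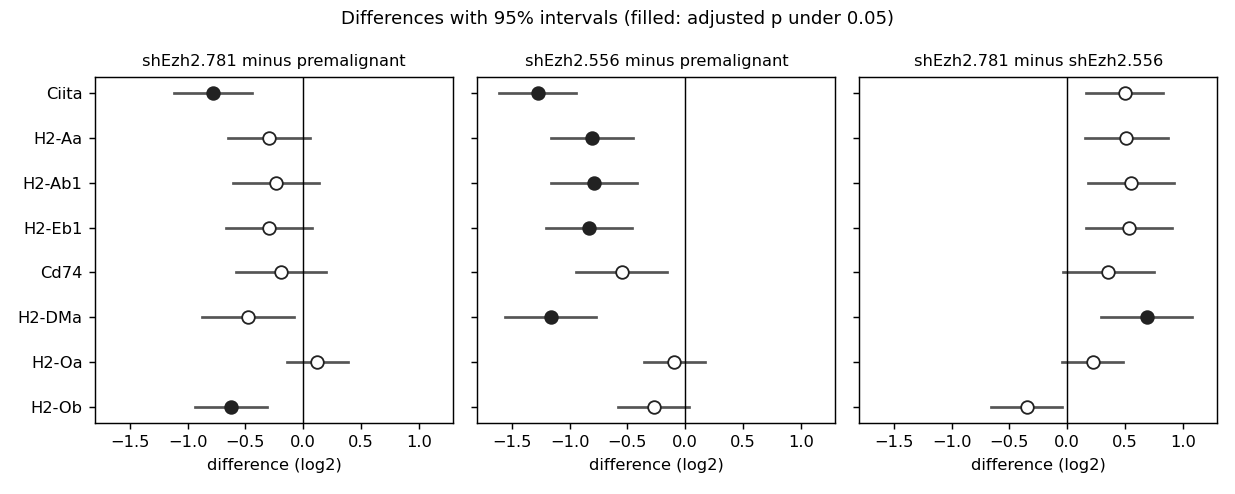
Log2 difference (points, filled where the adjusted p is under 0.05) and 95% interval (lines) of each member for shEzh2.781 and shEzh2.556, each minus premalignant cells, and for shEzh2.781 minus shEzh2.556. Ciita lies lowest in each comparison with premalignant cells, at -0.78 and -1.28, and H2-Ob alone has a lower mean with shEzh2.781 than with shEzh2.556.

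The 2 shEzh2.781 lymphomas differed from each other in this gene group more than the arrays of the other groups did. All 8 members were higher in shEzh2.781 array 2 than in array 1, by 0.21 to 0.67 with a median of 0.59. Over all genes the same step had a median of -0.02, and 8967 of 19938 genes were higher in array 2. A step of at least 0.4 was seen in 6 members and in 2.02% of all genes. Between the arrays of shEzh2.556 the members' steps ran from -0.21 to 0.19, and between the premalignant arrays from -0.18 to 0.24. Against the premalignant mean, shEzh2.781 array 1 stood at -0.59 for H2-Aa, -0.54 for H2-Ab1, -0.60 for H2-Eb1 and -0.53 for Cd74. Array 2 stood at 0.00 for H2-Eb1, 0.07 for H2-Ab1 and 0.14 for Cd74, yet at -0.53 for Ciita and -0.42 for H2-Ob. Thus array 2 had classical chain signals at the premalignant level beside a Ciita signal below it. Without array 2, H2-Aa, H2-Ab1, H2-Eb1, H2-DMa and Cd74 were also called lower with shEzh2.781 (limma adjusted p = 0.0225, 0.0452, 0.023, 0.00191 and 0.0468), which made 7 of 8 members. Without shEzh2.781 array 1, 1 member was called, and without either premalignant array none was.

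Markers of other cell types differed between the arrays too. For their counts below, 9.61% of all genes were called lower and 5.6% higher with both hairpins. By hairpin, 6.24% of all genes were called lower with shEzh2.781 and 11.4% with shEzh2.556. Neutrophil markers, 12 genes such as Ltf and S100a8, had a summed linear signal of 3819 and 6309 in shEzh2.781 lymphomas and 1060 to 1728 in shEzh2.556 lymphomas, against 10026 to 11674 in premalignant cells. They were called lower for 8 of 12 with shEzh2.781 (3 without premalignant array 2) and 12 of 12 with shEzh2.556, and their mean stood at -1.38 and -0.74 in shEzh2.781 arrays 1 and 2 relative to premalignant cells. So the neutrophil marker levels moved in the same order over the 2 shEzh2.781 arrays as the members did. Their part in the members' differences was not tested. Dendritic cell markers (12 genes), of cells that carry much class II, summed to 1064 to 1086 in shEzh2.781 lymphomas and 985 to 1049 in shEzh2.556 lymphomas, against 1590 to 2384 in premalignant cells, with Clec9a lowest at a mean of 4.83. With both hairpins, 6 of the 12 were called lower (3 without premalignant array 2) and 1 higher. Their mean was -0.57 and -0.55 in the 2 shEzh2.781 arrays, so it did not move between these arrays as the class II genes did. Macrophage and monocyte markers (14 genes) summed to 2885 to 3589 in shEzh2.781 lymphomas and 2847 to 3958 in shEzh2.556 lymphomas, against 3978 to 4406 in premalignant cells, with 3 called higher and 1 lower with both hairpins. Their highest gene was Lyz2, at a mean of 9.95. The median difference over the 14 genes was 0.08 with both hairpins, against 0.03 over all genes, so the lower sums do not describe most of the list. Pro-B and pre-B cell markers, of stages with little class II, summed to 9612 to 11411 in shEzh2.781 lymphomas and 6227 to 6658 in shEzh2.556 lymphomas, against 13029 to 15399 in premalignant cells, and 8 of 10 fell with both hairpins. Of 5 measured mature B-cell markers, 2 were called higher and none lower with both hairpins, with a median difference of 0.29. Of 6 measured plasma cell markers, 3 were called lower and none higher, with a median difference of -0.25. B-cell markers summed to 26590 to 28932 in shEzh2.781 lymphomas and 27529 to 28798 in shEzh2.556 lymphomas, against 29633 to 30138 in premalignant cells, with 1 of 8 called higher and 3 lower with both hairpins (none lower without premalignant array 2). T-cell markers summed to 2247 to 3085 in shEzh2.781 lymphomas and 3176 to 3751 in shEzh2.556 lymphomas, against 2502 to 2846 in premalignant cells. The highest gene of this list was Cd2, at a mean of 10.75. The median difference over the T-cell list was -0.47 with shEzh2.781 and -0.18 with shEzh2.556, so the higher shEzh2.556 sums do not describe most of the list. Of 9 T-cell markers, 1 was called higher and 3 lower with both hairpins. Where only 1 marker of a list was called in a direction, that count is near the share over all genes. From shEzh2.781 array 1 to array 2, macrophage and monocyte (2885 to 3589), T-cell (2247 to 3085) and B-cell sums (26590 to 28932) also rose. The median signal of the T-cell list was 6.73 in array 1 and 6.81 in array 2. The pro-B and pre-B sum fell between these arrays (11411 to 9612). The part of all these cells in the members' differences, between those arrays or from premalignant cells, was not tested.

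**Figure D3:**
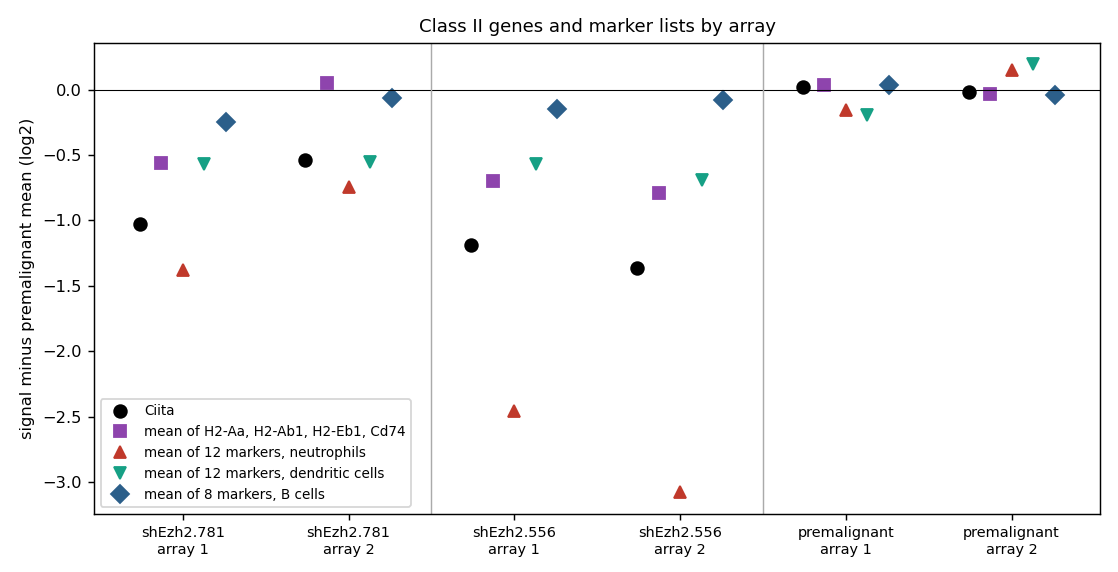
Log2 signal minus the premalignant mean in each array for Ciita, the mean of H2-Aa, H2-Ab1, H2-Eb1 and Cd74, and the means of neutrophil, dendritic cell and B-cell markers. The class II mean is -0.56 in shEzh2.781 array 1 and 0.05 in array 2, where neutrophil markers stand at -1.38 and -0.74 and dendritic cell markers at -0.57 and -0.55.

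Set directly against each other, the hairpin groups differed most in H2-DMa, which was 1.61-fold higher in shEzh2.781 than in shEzh2.556 lymphomas (log2 difference 0.69, SE 0.18, limma adjusted p = 0.0363). It was the 1 member of 8 called higher and none was called lower, where 5.5% of all genes were called higher and 4.53% lower. Of the 8 members, 6 had both shEzh2.781 arrays above both shEzh2.556 arrays (25.0% of all genes), and H2-Ob alone had both below (40.1% of all genes). The differences of Ciita, H2-Aa, H2-Ab1 and H2-Eb1 were 0.50 (95% interval 0.16 to 0.83), 0.51 (0.16 to 0.87), 0.55 (0.18 to 0.93) and 0.53 (0.16 to 0.91), with limma adjusted p of 0.0604, 0.0668, 0.0617 and 0.0678. The members' median was 0.50 and that of all genes -0.07. H2-Ob differed by -0.35 (95% interval -0.66 to -0.04, limma adjusted p = 0.12), H2-Oa by 0.22 (limma adjusted p = 0.23) and Cd74 by 0.36 (limma adjusted p = 0.195). Over all genes 1097 were higher and 903 lower as deposited, against 2242 and 453 with array medians subtracted, where 5 members were called. The H2-DMa call was lost without premalignant array 1 or 2 (limma adjusted p = 0.052 for each), shEzh2.781 array 2 (0.247), shEzh2.556 array 1 (0.161) or shEzh2.556 array 2 (0.107). Without shEzh2.781 array 1, 6 members were called, and without shEzh2.781 array 2 the 1 member called was H2-Ob, lower (limma adjusted p = 0.048).

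Most class II genes lie together on chromosome 17, with other genes between them. From H2-Oa to H2-Eb2 the reference table lists 14 protein-coding genes, of which 12 were measured alone. The 5 neighbours that are not class II genes were Brd2, which encodes a bromodomain protein, Psmb8 and Psmb9 of the immunoproteasome, and Tap1 and Tap2 of the class I peptide transporter. By limma, none of the 5 was called with both hairpins or with shEzh2.781 against premalignant cells, with 1 (Tap1) and 0 at an unadjusted p under 0.05. With shEzh2.556, Psmb9 and Tap1 each fell by 0.41 on the log2 scale (limma adjusted p = 0.0297 and 0.0334), against -0.79 to -0.83 for the classical chain genes. That is 2 of 5 neighbours, where 11.4% of all genes were called lower. Between the hairpins, Psmb9 was higher with shEzh2.781 than with shEzh2.556 by 0.43 (limma adjusted p = 0.0402), the 1 neighbour of 5 called, a call that was lost without either shEzh2.781 or either shEzh2.556 array. Both shEzh2.556 calls were lost without either premalignant array, that of Tap1 also without shEzh2.556 array 1 and that of Psmb9 also without shEzh2.556 array 2. After quantile normalization the shEzh2.556 calls of Psmb9 and Tap1 and the Psmb9 call between the hairpins were lost. In that setting Tap2 was called higher with shEzh2.556.

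At the end of the same stretch, next to H2-Eb1, H2-Eb2 rose. It encodes a further E-beta-like chain. Its signal was 9.82 and 10.25 in shEzh2.781 lymphomas and 10.70 and 10.62 in shEzh2.556 lymphomas, against 9.77 and 9.36 in premalignant cells. All 4 lymphoma arrays were above both premalignant arrays, as for 12.7% of all genes, the reverse of its neighbour H2-Eb1 in the shEzh2.556 lymphomas. H2-Eb2 rose 2.14-fold with shEzh2.556, a log2 difference of 1.10 (SE 0.16, limma adjusted p = 0.000682), and had a difference of 0.47 with shEzh2.781 (limma adjusted p = 0.0993). It was lower with shEzh2.781 than with shEzh2.556 (log2 difference -0.63, limma adjusted p = 0.0354). With both hairpins it rose by 0.79 (limma adjusted p = 0.00262), a call that was lost without premalignant array 2. The shEzh2.556 call held without each array in turn, and the call between the hairpins was lost without shEzh2.781 array 1 or either shEzh2.556 array. H2-Ea, the I-E alpha chain gene, which the reference table holds as a transcribed pseudogene, read 5.36 and 5.40 in shEzh2.781 lymphomas and 5.30 and 5.24 in shEzh2.556 lymphomas, against 5.28 and 5.42 in premalignant cells. Each hairpin group overlapped the premalignant cells. Both shEzh2.781 arrays were above both shEzh2.556 arrays, as for 25.0% of all genes. H2-Ea was called in no comparison.

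**Figure D4:**
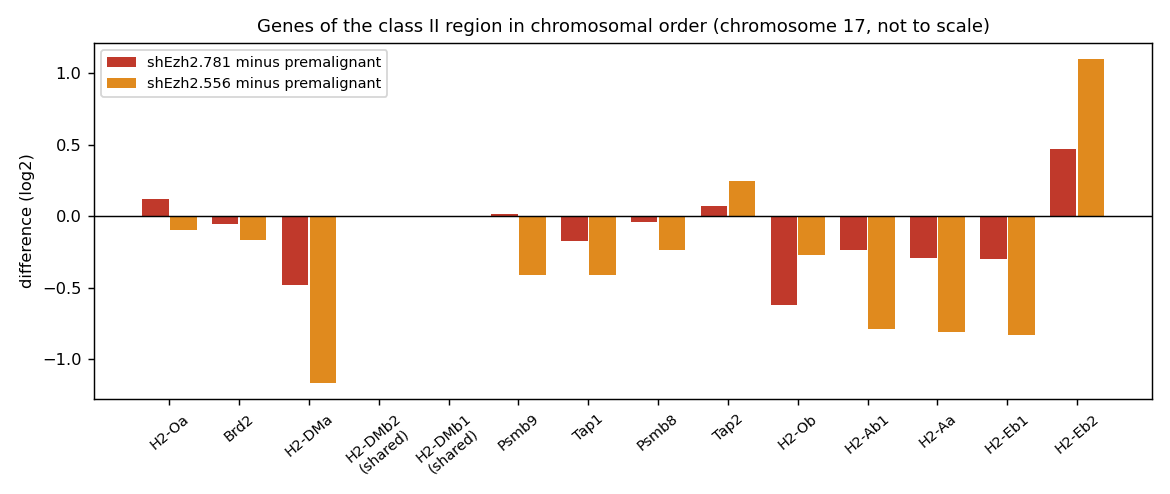
Log2 difference from premalignant cells of the genes from H2-Oa to H2-Eb2 in their order on chromosome 17, for shEzh2.781 and shEzh2.556, as bars from 0, with no bar for H2-DMb2 and H2-DMb1, which share a probe set. H2-DMa, H2-Ab1, H2-Aa and H2-Eb1 lie at -0.79 or lower with shEzh2.556, Brd2, Psmb8 and Tap2 lie between -0.24 and 0.24, and H2-Eb2 lies at 1.10.

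The factors that recruit Ciita to class II promoters fell in part. Of 7 such genes, 3 fell with both hairpins, 1 with shEzh2.781 and 4 with shEzh2.556, and none rose in these comparisons. Over all genes, 9.61%, 6.24% and 11.4% were called lower in the same comparisons, so the 1 of 7 with shEzh2.781 is near the background. Nfyb, an NF-Y subunit, read 9.44 and 9.32 in shEzh2.781 lymphomas and 8.79 and 8.997 in shEzh2.556 lymphomas, against 9.74 and 9.62 in premalignant cells. It fell 1.72-fold with shEzh2.556 (log2 difference -0.78, SE 0.12, limma adjusted p = 0.000835) and was higher with shEzh2.781 than with shEzh2.556 (0.49, limma adjusted p = 0.0284). Nfya, another NF-Y subunit, fell by 0.52 with shEzh2.556 (limma adjusted p = 0.00818), and Rfxank, an RFX subunit, fell by 0.47 (limma adjusted p = 0.0114). Creb1, which encodes CREB, fell by 0.42 with shEzh2.556 (limma adjusted p = 0.0434). Rfx5 and Rfxap, the other RFX subunits, were not called, with differences of -0.36 (limma adjusted p = 0.107) and 0.06 (limma adjusted p = 0.747) for both hairpins. The count of 3 with both hairpins was 2 without premalignant array 1 and 1 without premalignant array 2. The count of 4 with shEzh2.556 was 2 without shEzh2.556 array 1, and the 1 with shEzh2.781, Nfya, was lost whichever of the 6 arrays was left out. Nfyb kept its shEzh2.556 call without each array in turn, Rfxank lost it without shEzh2.556 array 2, and Creb1 lost it without shEzh2.556 array 1 or either premalignant array. The Nfyb call between the hairpins was lost without either shEzh2.781 array or shEzh2.556 array 1.

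Upstream of Ciita, 12 of 13 listed activators of B cells and of the interferon gamma route were measured, and with both hairpins 5 fell and 1, Ifngr1, rose. Over all genes 9.61% were called lower and 5.6% higher, so the 1 rise is near the background, and it was lost without any of the arrays except shEzh2.556 array 1. Irf4, an interferon regulatory factor of B cells, read 11.07 and 11.01 in shEzh2.781 lymphomas and 10.20 and 10.40 in shEzh2.556 lymphomas, against 11.21 and 11.41 in premalignant cells. It fell 2.01-fold with shEzh2.556 (log2 difference -1.01, SE 0.12, limma adjusted p = 0.000157), was not called with shEzh2.781 (-0.27, limma adjusted p = 0.218), and differed between the hairpins by 0.74 (limma adjusted p = 0.00378). Irf8, a related factor, fell by 0.48 with shEzh2.781 and by 0.58 with shEzh2.556 (limma adjusted p = 0.0192 and 0.00458). Pax5, which holds B-cell identity, fell by 0.42 and 0.46 with the same hairpins (limma adjusted p = 0.0333 and 0.0157). Tcf3 and Irf1 fell with shEzh2.556, by 0.61 and 0.57 (limma adjusted p = 0.00333 and 0.00441). With its probe sets averaged, Irf1 differed by -0.30 with shEzh2.556 and was not called (limma adjusted p = 0.0891). Its call with both hairpins was also lost in that setting. Ifngr1, a chain of the interferon gamma receptor, rose by 0.52 with shEzh2.781 (limma adjusted p = 0.0101), and Spi1, which encodes PU.1, had a difference of 0.00 with both hairpins (SE 0.11). The 5 that fell with both hairpins were 1 without premalignant array 2. Irf4, Irf8, Tcf3 and Irf1 kept their shEzh2.556 calls without each array in turn, and Pax5 lost it without premalignant array 2 or shEzh2.556 array 1. With shEzh2.781, the calls of Irf8 and Pax5 were lost without premalignant array 2 or either shEzh2.781 array, that of Pax5 also without premalignant array 1, and that of Ifngr1 without premalignant array 2 or shEzh2.781 array 2. The 3 listed repressors, Prdm1, Socs1 and Ezh2, also fell with both hairpins, Prdm1 by 0.43 and Socs1 by 0.40 (limma adjusted p = 0.0256 and 0.0376), and 1 of the 3 was called without premalignant array 2 or without shEzh2.556 array 2. Ezh2, the methyltransferase that sets H3K27 trimethylation, is the hairpins' target, so its fall is no independent result.

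Several genes of antigen processing in endosomes went the other way than the class II genes. Of 9 such genes, 5 rose and 1 fell with both hairpins, where 5.6% of all genes were called higher and 9.61% lower. Their median difference was 0.52, against 0.03 over all genes. With shEzh2.781 alone 3 rose and 1 fell, where 4.6% of all genes were called higher and 6.24% lower. Ctsb, Ctsd and Sppl2a were not called with both hairpins. Ifi30, a lysosomal thiol reductase that opens disulphide bonds of antigens, read 12.32 and 12.45 in shEzh2.781 lymphomas and 12.41 and 12.53 in shEzh2.556 lymphomas, against 11.43 and 11.34 in premalignant cells. All 4 lymphoma arrays were above both premalignant arrays, and Ifi30 rose 2.00-fold with shEzh2.781 (log2 difference 1.00, SE 0.11, limma adjusted p = 0.000169) and 2.12-fold with shEzh2.556 (log2 difference 1.08, SE 0.11, limma adjusted p = 5.47e-05). Ctss, the protease that trims the invariant chain in B cells, rose 1.56-fold with shEzh2.556 (log2 difference 0.64, limma adjusted p = 0.00249) and differed by 0.39 with shEzh2.781 (limma adjusted p = 0.0514). Lgmn, an asparaginyl endopeptidase, rose 1.88-fold with shEzh2.556 (limma adjusted p = 0.000707), and Ctsh and Ctsz, further cathepsins, rose by 0.87 and 0.52 with both hairpins (limma adjusted p = 0.00209 and 0.00414). Ctsl, which trims the invariant chain in thymic epithelium, fell by 0.82 with both hairpins (limma adjusted p = 0.0037). The 5 that rose were 3 without either premalignant array, since Ctss and Ctsh lost their calls without array 1 and Lgmn and Ctsz without array 2. Ifi30 kept its calls, and Ctss and Lgmn their shEzh2.556 calls, without each array in turn.

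Of the genes that act on class II at the surface, 3 were measured. Marchf1, a ubiquitin ligase that takes class II and CD86 off the surface, read 6.98 and 7.43 in shEzh2.781 lymphomas and 7.74 and 7.84 in shEzh2.556 lymphomas, against 6.997 and 7.03 in premalignant cells. It rose 1.71-fold with shEzh2.556 (log2 difference 0.78, SE 0.14, limma adjusted p = 0.00293) and was lower with shEzh2.781 than with shEzh2.556 (-0.58, limma adjusted p = 0.0284). Its relative Marchf8 fell by 0.38 with shEzh2.556 (limma adjusted p = 0.0461), a call lost without either premalignant or either shEzh2.556 array. So 1 of the 3 rose and 1 fell with shEzh2.556, where 6.8% of all genes were called higher and 11.4% lower. Between the hairpins Marchf8 went the opposite way to Marchf1, with a difference of 0.59 (limma adjusted p = 0.0119). Cd83, which opposes Marchf1, was not called. The shEzh2.556 call of Marchf1 held without each array in turn, and the calls between the hairpins of both genes were lost without shEzh2.781 array 1 or either shEzh2.556 array.

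Among 5 genes of costimulation, 2 rose with both hairpins, where 5.6% of all genes did. Cd86, a ligand of CD28 on T cells, read 8.04 and 8.16 in shEzh2.781 lymphomas and 8.55 and 8.78 in shEzh2.556 lymphomas, against 7.005 and 6.65 in premalignant cells. It rose 2.42-fold with shEzh2.781 (log2 difference 1.28, SE 0.14, limma adjusted p = 0.000132) and 3.57-fold with shEzh2.556 (log2 difference 1.84, SE 0.14, limma adjusted p = 4.62e-06). Its partner Cd80 read 6.57 and 6.61 in shEzh2.781 lymphomas and 7.63 and 8.09 in shEzh2.556 lymphomas, against 6.61 and 6.43 in premalignant cells, so only the shEzh2.556 arrays stood above. Cd80 rose 2.53-fold with shEzh2.556 (log2 difference 1.34, SE 0.15, limma adjusted p = 8.16e-05), and the hairpin groups differed by -1.27 (limma adjusted p = 0.000433). These calls of Cd86 and Cd80 held without each array in turn, while that of Cd80 with both hairpins was lost without premalignant array 2. Of the MHC class I genes, 10 of 12 were measured, and by limma none was called with both hairpins, where 15.2% of all genes were called in either direction. At an unadjusted p under 0.05 there were 2, of which Tap1 had a difference of -0.29 (limma adjusted p = 0.0853). With shEzh2.556 alone, 2 of the 10, Tap1 and Psmb9, were called lower, where 11.4% of all genes were. Between the hairpins 1 of the 10, Psmb9, was called higher with shEzh2.781, where 5.5% of all genes were. These class I calls were lost after quantile normalization.

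**Figure D5:**
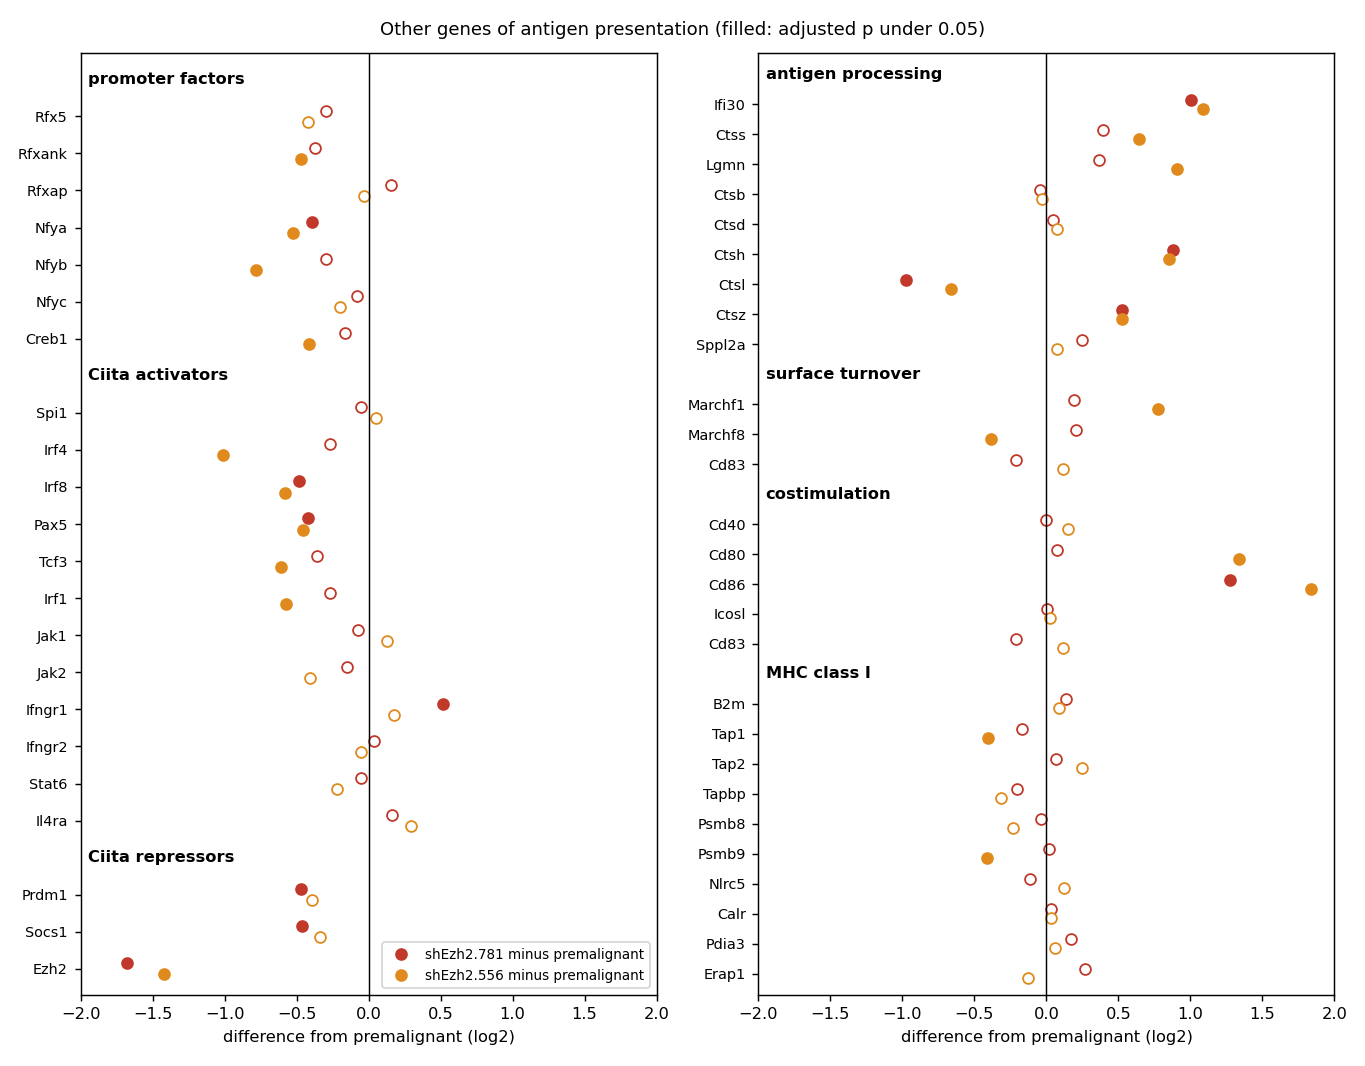
Log2 difference of each gene of the promoter factor, Ciita activator and repressor, antigen processing, surface turnover, costimulation and MHC class I lists, for shEzh2.781 and shEzh2.556, each minus premalignant cells, with points filled where the adjusted p is under 0.05. With shEzh2.556, Nfyb and Irf4 lie at -0.78 and -1.01, while Ifi30 and Cd86 lie at 1.08 and 1.84.

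The members resembled each other to different degrees across the 6 arrays. Pearson's r with Ciita was 0.95 for H2-DMa, 0.94 for H2-Eb1, 0.93 for H2-Aa, 0.92 for H2-Ab1 and 0.87 for Cd74, and it was 0.56 for H2-Ob and 0.38 for H2-Oa. The arrays fall into groups, so these values mainly describe the group differences, and they carry no test. Among 1377 genes outside the lists that spanned at least 1 on the log2 scale, the 8 most like Ciita were Rab3a, Slfn4, Clec12a, Pygl, Ly6g, Lilr4b, Cd177 and Edaradd, with r between 0.988 and 0.993. Ly6g, 1 of the neutrophil markers, read 6.44 and 7.30 in shEzh2.781 lymphomas and 5.63 and 5.58 in shEzh2.556 lymphomas, against 8.44 and 8.73 in premalignant cells. Rab3a, a small GTPase of vesicle release, read 6.90 and 7.34 in shEzh2.781 lymphomas and 6.73 and 6.64 in shEzh2.556 lymphomas, against 7.61 and 7.69 in premalignant cells. The 8 most like the mean of H2-Aa, H2-Ab1, H2-Eb1 and Cd74 were As3mt, Lilr4b, Anxa1, Cnr2, Gsr, Rab3a, Zfp758 and Dhrs9, with r between 0.945 and 0.962. As3mt, an arsenic methyltransferase, showed the step within the shEzh2.781 group at a larger size, with 5.95 and 7.78 in shEzh2.781 lymphomas and 5.77 and 5.70 in shEzh2.556 lymphomas, against 8.59 and 8.47 in premalignant cells.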

How the data were processed

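Total RNA of 6 mouse B-cell samples was hybridised to 1-colour arrays, per the labels' protocols. Each probe set had 1 deposited value, and the deposited values were taken as log2 from their range (2.30 to 14.2). How the authors corrected background, normalized and summarized is not given in the sources used here, and offsets between arrays of the size of the median differences remain. Signal over background and the number of arrays limit precision.

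Of 35512 probe sets, 21789 had 1 gene symbol, 1621 had several and 12102 had none, and only the first kind was used for genes. Where a gene had several probe sets (999 genes), that with the highest mean was taken, which left 19938 genes. The 3 groups were fitted together in limma 3.58.1 (R 4.3.3) with lmFit and eBayes, no covariates, and called at an adjusted p under 0.05. There were 3 residual and 8.51 prior degrees of freedom. The fit was tested on simulated data. Tables were made with pandas 2.3.3 and numpy 2.4.6 in Python 3.11.15, and figures with matplotlib 3.10.9.

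The members and the gene lists were chosen with earlier results of these data known. Named are the members, genes of the fixed lists where a list is described, and the 8 genes outside them most correlated over 6 arrays with Ciita, and with the mean of H2-Aa, H2-Ab1, H2-Eb1 and Cd74, among genes spanning at least 1 (log2), without small RNAs, olfactory or vomeronasal receptors, antigen receptor segments and predicted genes. Alternatives were quantile normalization, subtracted array medians, dim genes left out, probe sets averaged or all tested, an intensity trend, a replicate block, each array left out, only the groups compared, and the 4 lymphomas as 1 group.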

Additional observations from a re-analysis of the deposited data

Results flagged for a closer look

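H2-DMa differed between the hairpin groups by the test of that difference: it was higher in shEzh2.781 than in shEzh2.556 lymphomas by 0.69 on the log2 scale (limma adjusted p = 0.0363). The shEzh2.781 arrays read 9.04 and 9.70 and the shEzh2.556 arrays 8.68 and 8.69. The call was lost in 8 of 14 alternatives. Among them were quantile normalization, all probe sets tested, only the groups compared and several single arrays left out.

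H2-Oa lay on opposite sides of the premalignant mean in the hairpin groups, with both shEzh2.781 arrays above it and both shEzh2.556 arrays below it, a gap of 0.22 on the log2 scale between the hairpin means. It was seen from the arrays alone, since neither difference from premalignant cells was called. The difference was 0.12 with shEzh2.781 (limma adjusted p = 0.648) and -0.10 with shEzh2.556 (limma adjusted p = 0.586). After quantile normalization the shEzh2.556 difference from premalignant cells was 0.01. The direct comparison of the hairpins gave a limma adjusted p of 0.23.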

How the results depend on the processing

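Among 448 member results under the alternatives, 6 changed sign, none of them called as reported or under the alternative: without shEzh2.781 array 1, the shEzh2.781 differences of H2-Ab1, H2-Eb1 and Cd74 became 0.07, 0.00 and 0.14, H2-Oa with both hairpins became -0.07 and -0.04 without premalignant array 2 and shEzh2.781 array 2, and H2-Oa with shEzh2.556 became 0.01 after quantile normalization. Of the 448, 374 stayed on their side of the threshold, 50 lost it and 24 gained it. Members called with both hairpins, 6 in the fit reported, were 1 with all probe sets tested, 1 with the 4 lymphomas as 1 group, 4 with medians subtracted, and 1 to 7 leaving out 1 array; all genes called, 3033, were 1091 with the lymphomas as 1 group and 1721 to 2833 leaving out 1 array. With shEzh2.781, 2 members became 0 with all probe sets tested and 0 to 7 leaving out 1 array, and 2161 genes became 1247 and 1103 to 2048. With shEzh2.556, 5 members became 2 with all probe sets tested and 3 to 6 leaving out 1 array, and 3635 genes became 1949 to 3669 leaving out 1 array. Between hairpins, 1 member became 0 after quantile normalization, 5 with medians subtracted, 0 with all probe sets tested, 4 with an intensity trend, 0 with only the groups compared and 0 to 6 leaving out 1 array, and 2000 genes became 317 with all probe sets tested and 718 to 2085 leaving out 1 array. Testing all probe sets raises the number of tests and also estimates the spread anew from all of them. Leaving out an array leaves a lone array assumed to vary like the other groups. The cause of the shifts was not tested.

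The replicate numbers did not pair the arrays: deviations of same-numbered arrays correlated at -0.09 (shEzh2.781 with premalignant), -0.12 (shEzh2.556 with premalignant) and 0.06 (shEzh2.781 with shEzh2.556). With the replicate block, 6, 2, 6 and 1 members and 2889, 2078, 3371 and 1783 genes were called for both hairpins, shEzh2.781 and shEzh2.556 against premalignant cells and shEzh2.781 against shEzh2.556. How far dim probe sets, such as those of H2-Ea and Prdm1, stood above background is not known here.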
